A study of Gallus gallus with 4 samples.

Results

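c-Myc peaks in first introns are the peaks that the authors' annotation places in intron 1 of a gene model, leaving out those whose detailed annotation names a CpG island or a repeat. They were chosen by these annotation fields of the deposited peak lists, not by their signal, and there were 603 of them among 20415 peaks. Of these, 571 lay among 19354 peaks of myoblasts and 32 among 1061 peaks of myotubes. Chromatin immunoprecipitation sequencing (ChIP-seq) located the transcription factor c-Myc in chicken skeletal muscle cells, to compare its targets between both states. All cells were primary cells of embryonic skeletal muscle at passage 1. The myoblasts proliferated in RPMI-1640 with 15% fetal bovine serum, and the myotubes were obtained by moving such cells to RPMI-1640 with 2% horse serum. Each state had 1 library made with an antibody to c-Myc and 1 made with IgG, so the work rests on 4 libraries without replicates and no test between the states could be made.

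c-Myc binds DNA as a pair with MAX, through a helix-loop-helix and leucine zipper region, and is best known from promoters of genes for growth and proliferation. The first intron lies directly downstream of the promoter, is often the longest intron of a vertebrate gene, and is a common place for enhancers and alternative promoters. In muscle, myoblasts leave the cell cycle and fuse into myotubes, and c-Myc is known as a factor of the proliferating state.

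Depth in myoblasts was 11.5M tags for c-Myc and 16.1M for IgG, and in myotubes 8.65M and 19.3M. A tag is an aligned read, and here each read of a pair appears to count 0.5. Peaks were 200 bp wide in myoblasts and 154 bp wide in myotubes. Scores are the authors' values and count the c-Myc tags that the peak caller saw, scaled to a library of 10M. The c-Myc and IgG tags quoted beside it were counted again over the peak when it was annotated, and can differ from the caller's count. Differentiation, serum, depth and peak width differ together between the lists and cannot be told apart. In chromatin from many cells, binding in fewer cells and weaker binding in every cell cannot be told apart either. No RNA was measured, so the labelled cell type could not be checked against its markers.

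First-intron peaks were 2.95% of all myoblast peaks (exact 95% binomial interval 2.72 to 3.20) and 3.02% of all myotube peaks (2.07 to 4.23). The number of peaks differed by state while their share of the list hardly did, and the intervals overlap. Among all peaks in introns, intron 1 held 619 of 2629 in myoblasts (23.5%, 21.9 to 25.2) and 36 of 128 in myotubes (28.1%, 20.5 to 36.8). The rule then left out 48 myoblast peaks, 12 in CpG islands and 36 in repeats, and 4 myotube peaks, 1 and 3 of each kind. Intervals on shares here cover counting error only.

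The share of intron peaks that fell in intron 1 went down as the gene model had more introns. Peaks placed evenly over introns would also give such a fall, since intron 1 is then a smaller part of the model. No expected share was computed, so the fall by itself is not a result about c-Myc. In myoblasts it was 39.8% in models of 2 to 5 introns (147 of 369), 23.9% in models of 6 to 10 (190 of 796), 19.4% in models of 11 to 20 (168 of 864) and 14.9% in models with over 20 (85 of 571). In myotubes the same shares were 50% (7 of 14), 28.6% (12 of 42), 26.8% (11 of 41) and 10.7% (3 of 28). The order was the same in both states, although intervals of neighbouring myotube classes overlap. Genes with a single intron held 29 further myoblast peaks and 3 myotube peaks, all in intron 1 by definition. Host models of first-intron peaks had a median of 9 introns in myoblasts, against 12 for peaks in later introns. Intron lengths were not used here, so the density of peaks per kilobase of intron is not given.

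The scores of first-intron peaks lay level with those of peaks elsewhere. In myoblasts their scores ran from 8.72 to 24.4, with a median of 12.6 (interval 12.2 to 13.1) and quartiles of 11.3 and 13.9. Later introns, intergenic sequence outside CpG islands and repeats, and the whole list had the same median of 12.6. In myotubes the median was 13.0 (12.1 to 13.9), with a range of 10.4 to 18.5, beside 13.3 in later introns, in intergenic sequence and over the whole list. The difference in myotubes is smaller than the interval of the first-intron median. The whole list reached 297.2 in myoblasts and 214.4 in myotubes. It holds far more peaks and also classes not compared here, and what lies behind its higher maximum was not tested. Later introns reached 26.1 and 42.8, and intergenic sequence outside CpG islands and repeats 31.4 and 24.9. A score of at least 20 was reached by 6 of 571 first-intron peaks of myoblasts (1.05%, 0.387 to 2.27). This stood beside 1.92% of all myoblast peaks, 0.699% of those in later introns and 1.08% of those in intergenic sequence, all within that interval or near its lower part. In myotubes 0 of 32 reached it, for which the exact interval reaches 10.9%, beside 3.77% of all myotube peaks.

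**Figure D1:**
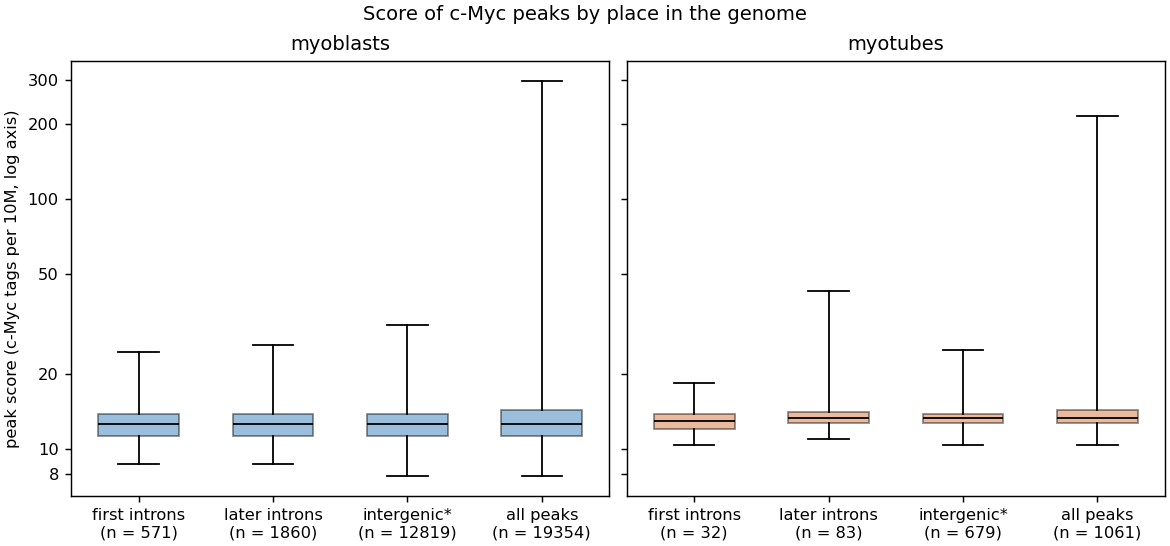
Peak score (c-Myc tags per 10M, log axis) by place in the genome for myoblasts and myotubes; boxes give quartiles and median, whiskers the lowest and highest peak, and intergenic* leaves out CpG islands and repeats. The boxes of first introns (median 12.6 in myoblasts and 13.0 in myotubes) lie level with the other classes. The highest first-intron peaks, at 24.4 and 18.5, lie far under the highest of all peaks. Those sets hold far more peaks and also classes not drawn here.

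The signal behind a typical first-intron peak was small. The median peak held 14.5 c-Myc tags in myoblasts (exact Poisson 95% interval 8.02 to 24.1) and 11.5 in myotubes (5.84 to 20.3). The median IgG tags were 2.5 and 3.0, and no first-intron peak had more than 8 IgG tags in myoblasts or 7 in myotubes. At such counts the order of single peaks is uncertain, since the interval of the median myoblast peak nearly reaches the 25 tags of the highest. Summed over the 571 myoblast peaks, 8532 c-Myc tags stood against 1546 IgG tags, a ratio of 7.73 after scaling both libraries to 10M tags. That ratio was 7.91 in later introns, 7.98 in intergenic sequence and 7.80 over all peaks. In myotubes the 32 peaks held 375.5 c-Myc and 106.5 IgG tags (87.2 to 129), a ratio of 7.86 beside 9.64 in later introns and 8.51 over all peaks. Every listed peak had a deposited fold over IgG of at least 4. High ratios and low IgG counts in every class follow in part from that limit and are not separate support for binding. Peaks with 0 IgG tags made up 6.83% of first-intron peaks in myoblasts (39 of 571, 4.90 to 9.22), beside 7.36% of all myoblast peaks. They made up 9.38% in myotubes (3 of 32, 1.98 to 25.02), beside 9.05% of all myotube peaks.

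The highest first-intron peak of myoblasts lay in CBFA2T3, which encodes a transcriptional corepressor of the ETO family. It covered 18013186 to 18013386 on chromosome 11 (build galGal4), 4.96 kb downstream of the transcription start site (TSS), and had a score of 24.4 with 25 c-Myc and 6 IgG tags. In the authors' deposited table its p-value against IgG is 2.56e-14. Its count of 25 tags has a Poisson interval of 16.2 to 36.9, which takes in the counts of the other 19 highest peaks. ARCN1, the delta subunit of the COPI vesicle coat, came next with a score of 21.8 (25 c-Myc and 5 IgG tags). A peak placed in the model of the microRNA gene MIR6603 followed at 20.9. In myoblasts 8 first-intron peaks lay in 3 such microRNA gene models, and whether these models are host transcripts was not settled.

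Among the 20 highest peaks of myoblasts, that in MSN, moesin, which links actin to the plasma membrane, had a score of 20.5 with 23.5 c-Myc tags and 0 IgG tags. VAPA, a membrane protein of the endoplasmic reticulum, had a peak of the same score with 1.5 IgG tags. SDC4, the heparan sulfate proteoglycan syndecan 4, had a peak of score 19.6 at 10.97 kb from the TSS. EFNB1, an ephrin ligand, and CDC42BPA, a kinase that acts on the actin skeleton, each had a peak of score 17.9. The IgG counts ranged from 0 to 7.5 tags among these 20 peaks, so peaks of equal score did not have equal background. RNF220, a ubiquitin ligase, also had 0 IgG tags, at a score of 18.3.

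Among the same 20, RUNX1, a runt-domain factor, had a peak at 8.05 kb with a score of 18.3 and 2 IgG tags. SMAD3, which carries TGF-beta signals to the nucleus, had a peak of score 18.3 at 36.2 kb with 2.5 IgG tags. RORA, a nuclear receptor of the circadian clock, reached 17.9 at 123.7 kb with 4 IgG tags. QKI, an RNA-binding protein, had a peak of score 19.6 at 5.56 kb with 22.5 c-Myc and 3 IgG tags. RORA thus had the most IgG tags of these 4 genes and RUNX1 the fewest.

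Position along the intron was bounded by the annotation itself. All 1449 myoblast peaks and all 99 myotube peaks within 2 kb of an annotated TSS were placed in the authors' promoter class, 638 and 33 of them downstream of the TSS. No first-intron peak therefore lay closer than that, and the peaks described here start where the promoter class ends. The nearest TSS was that of the host gene for 524 myoblast peaks, whose median distance was 11.9 kb (interval 10.5 to 13.9, quartiles 5.52 and 28.7 kb). Within 5 kb lay 108 of them (20.6%), within 10 kb 229 (43.7%), within 50 kb 446 (85.1%) and within 100 kb 503 (96.0%). For 29 myotube peaks the median was 16.7 kb (7.88 to 31.6), with 7 within 5 kb (24.1%) and 27 within 50 kb (93.1%). The intervals of both medians overlap.

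**Figure D2:**
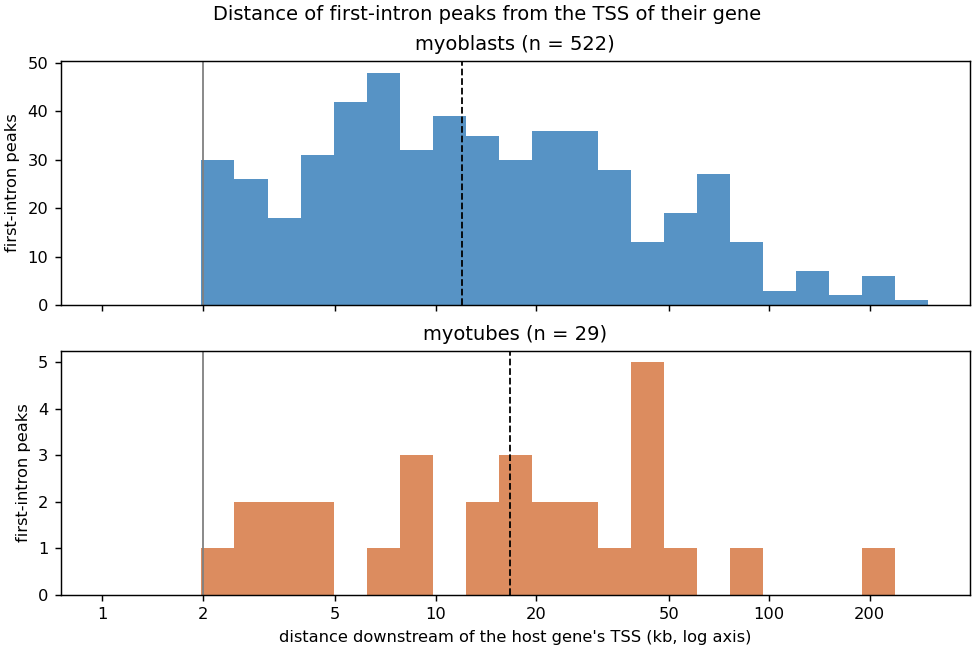
Number of first-intron peaks by distance downstream of the host gene's TSS (kb, log axis), for peaks whose nearest TSS is that of the host gene; the grey line marks 2 kb, the dashed line the median. The counts start at the edge of the promoter class, the medians are 11.9 kb in myoblasts and 16.7 kb in myotubes, and the farthest peaks lie at 262.9 and 230.6 kb.

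The peak closest to its own TSS in myoblasts was in CCDC104, at 2003 bp, followed by COL22A1 at 2013 bp, PSAP at 2038 bp, RIPK1 at 2039 bp and TGFBI at 2058 bp. Scores of these 5 ran from 10.9 to 16.6, the highest being that of TGFBI, a secreted matrix protein. Among peaks whose nearest TSS was that of the host, the farthest lay in FGF14. This fibroblast growth factor homologue, which acts inside the cell, had peaks at 224.7 and 262.9 kb with scores of 14.4 and 13.1. ESRRG, an orphan nuclear receptor, had a peak at 217.4 kb with a score of 12.2. KCNIP4, a potassium channel interacting protein, had peaks at 202.2 and 208.6 kb with scores of 12.6 and 14.8. Scores of the far peaks thus lay within the range of the near ones. For 518 of the 524 myoblast peaks the nearest TSS was that of the host transcript itself. For the rest it was that of another transcript of the same gene, and their distances count from that TSS. In 2 of these, such as a peak in RNF220, that TSS lay downstream of the peak.

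For 47 myoblast peaks and 3 myotube peaks the nearest TSS belonged to a gene other than the host. The median distance to that TSS was 40.3 kb in myoblasts, and 1 of the 47 lay within 5 kb of it. The distance from the host's own TSS could be derived for 30 of the 47 and reached 279.4 kb in PCGF5 and 308.5 kb in PTPRU, farther than any peak whose nearest TSS was the host's. In myotubes a peak in intron 1 of PCGF5 lay 3.47 kb upstream of ANKRD1, which encodes an ankyrin repeat protein of striated muscle, and 239.3 kb from the PCGF5 TSS. The other two were in LPHN2, 9.67 kb upstream of PTPRJ, and in PTPRU, 18.4 kb upstream of EPB41. For these peaks the lists name a nearest gene that differs from the gene whose intron holds the peak.

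First introns that held several peaks were common in myoblasts. The 571 peaks fell in 394 genes, of which 101 (25.6%, 21.4 to 30.2) held more than 1 peak, and these 101 held 278 peaks (48.7%). Among genes with peaks in later introns, which can span many introns, 384 of 1094 (35.1%) held more than 1. Neighbouring peaks of 1 first intron were 12.8 kb apart in the median of 177 gaps, and 41 gaps were at most 5 kb. The closest pair was 654 bp apart, in HS6ST1. Peaks of 1 intron share a gene and a library and are not independent observations.

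PCGF5, a Polycomb group ring finger protein, had the most, with 12 peaks between 18983970 and 19246066 on chromosome 6. They lay 17.5 to 279.4 kb from its TSS and their scores ran from 10 to 18.3, with 0.5 to 6 IgG tags each. For most of them the nearest TSS was that of HTR7 or ANKRD1 and not that of PCGF5. RORA had 8 peaks over 185.7 kb of chromosome 10, from 11.7 to 197.4 kb from the TSS, with scores of 10.9 to 17.9. HS6ST1, a heparan sulfate sulfotransferase with a single intron in its model, had 8 peaks over 132.7 kb with scores of 11.3 to 17.0. For some of the HS6ST1 peaks the nearest TSS was that of SAP130. Gaps between neighbouring peaks were 6.21 to 57.2 kb in PCGF5, 0.999 to 74.6 kb in RORA and 0.654 to 59.6 kb in HS6ST1. Intron lengths were not used, and peaks within 2 kb of a TSS were in the promoter class. Whether peaks favoured a part of the intron was therefore not tested. RUNX1 had 6 peaks over 71.5 kb, the nuclear receptor genes ESRRG and NR3C2 had 6 each over 148.8 and 54.8 kb, and UBE2L3, KCNIP4, CTBP1 and GPM6B had 5 each. None of these 10 genes except CTBP1, with 2, had a first-intron peak with 0 IgG tags.

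**Figure D3:**
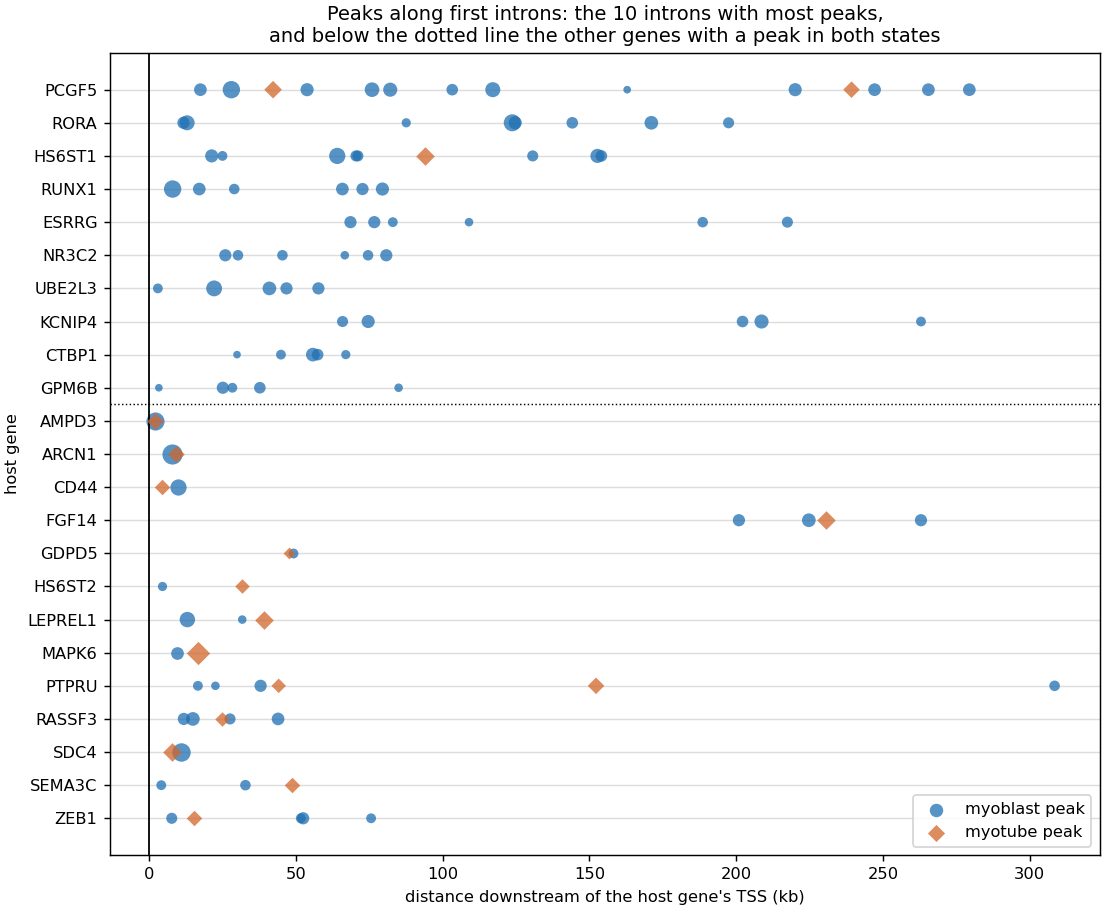
Position of each first-intron peak (kb downstream of the host gene's TSS; symbol size grows with score) for the 10 genes with most peaks and, under the dotted line, the other genes with a first-intron peak in both states. Peaks of PCGF5 spread from 17.5 to 279.4 kb, and of the myotube peaks drawn only that of AMPD3 coincides with a myoblast peak.

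Myotubes had 32 first-intron peaks in 28 genes, and 4 of these genes (14.3%) held a pair. The highest lay in MAP2K1, the MAP kinase kinase MEK1, at 7.41 kb from the TSS, with a score of 18.5 (16.5 c-Myc and 3 IgG tags), and a second in the same intron at 14.2 kb had a score of 14.4 (13 and 6.5 tags). MAPK6, an atypical MAP kinase for which the RefSeq table gives the symbol MAPK4, had a peak of score 17.3 (15 and 5 tags). ADA, adenosine deaminase, and SPPL2B, a signal peptide peptidase, each had a peak of score 15.0 with 13 c-Myc tags, and 4.5 and 5 IgG tags. No other myotube peak exceeded 14.4, so the group was narrow apart from MAP2K1 and MAPK6.

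TEAD1, a transcription factor that binds muscle gene promoters, had a myotube peak of score 13.9 with 13 c-Myc tags and 0 IgG tags, 19.1 kb from its TSS. The other myotube peaks with 0 IgG tags lay in TBL1X, a part of corepressor complexes, at 46.0 kb, and in ACADSB, a mitochondrial acyl-CoA dehydrogenase, at 3.67 kb, both with 11.5 c-Myc tags. The guidance gene NTN1 had a pair, with scores of 14.4 and 12.7 and 7 and 5.5 IgG tags. CDCA7L, SDC4, HS6ST1, FGF14 and LEPREL1 each had a peak of score 13.9, over 1 to 7 IgG tags. Across all 32 peaks IgG tags ran from 0 to 7 while c-Myc tags ran from 9 to 16.5.

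**Figure D4:**
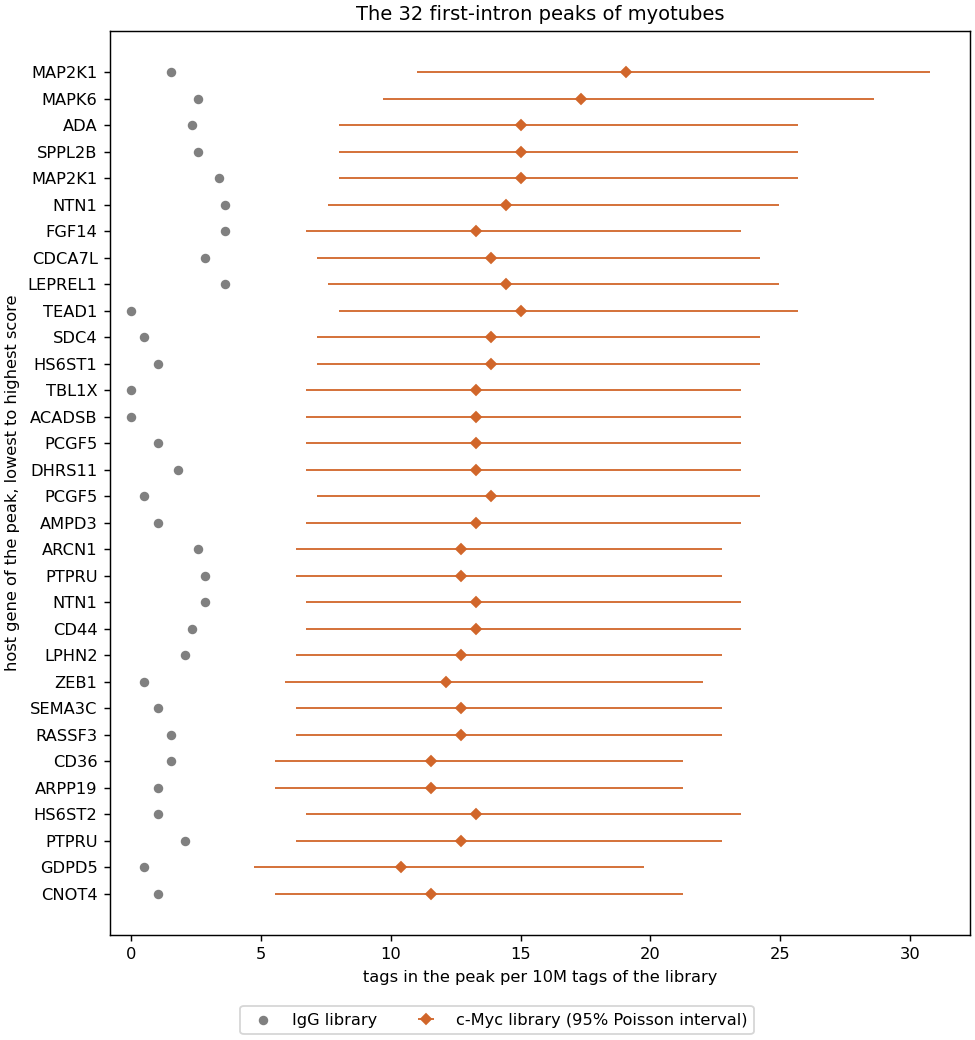
Tags in each of the 32 first-intron peaks of myotubes, per 10M tags of the library, from highest score at the top to lowest. Diamonds give the c-Myc library with approximate 95% Poisson intervals, and grey points the IgG library. The c-Myc intervals of all peaks overlap each other, and 3 peaks (TEAD1, TBL1X and ACADSB) have 0 IgG tags.

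Overlap between the states was confined to a single site. Of the first-intron peaks, 1 of 571 in myoblasts (0.175%, 0.00443 to 0.972) and 1 of 32 in myotubes (3.13%, 0.0791 to 16.2) overlapped a peak of the other list by at least 1 bp, beside 0.382% of all myoblast peaks and 6.97% of all myotube peaks. The site was in AMPD3, an AMP deaminase, on chromosome 5. The myoblast peak at 8385135 to 8385335 had a score of 19.2 with 22 c-Myc and 6 IgG tags, and the myotube peak at 8385127 to 8385281 had a score of 12.7 with 11.5 c-Myc and 2 IgG tags. Later introns likewise shared 1 peak, of 1860 and of 83. With so few peaks the shares cannot be told from those of the whole lists.

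Although sites were rarely shared, host genes often were. Of the 28 host genes in myotubes, 15 also hosted a first-intron peak in myoblasts (53.6%, 33.9 to 72.5), beside 8.10% of all 4867 genes named in either list. Intron lengths were not used, so the 8.10% makes no allowance for them and is not a strict reference. What part intron length has in the shared hosts was not tested. The 15 are 3.81% of the 394 myoblast hosts. For later introns the same count was 51 of 80 (63.8%, 52.2 to 74.2), beside 22.5% of all genes named, and 4.66% of 1094. The 15 genes held 17 of the 32 myotube peaks and 46 of the myoblast peaks. A myotube peak with a myoblast peak in the same intron lay 7.04 kb from it in the median, and over all 32 the nearest myoblast peak of any kind was 7.70 kb away. Of the 32, 2 had one within 1 kb, 7 within 5 kb and 17 within 10 kb. Such distances were not computed for the other myotube peaks, so these have no reference.

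ARCN1 had its myoblast peak at 7.68 kb (score 21.8) and its myotube peak at 9.14 kb (score 12.7), 1.46 kb apart and each with 5 IgG tags. SDC4 had peaks at 10.97 kb in myoblasts (19.6) and 7.88 kb in myotubes (13.9), 3.09 kb apart. CD44, the hyaluronan receptor, had peaks at 9.90 kb (17.0) and 4.30 kb (12.1). In these genes the myoblast peak had the higher score, whereas MAPK6 had 13.5 in myoblasts and 17.3 in myotubes, and HS6ST2, a second heparan sulfate sulfotransferase, had 10.9 and 11.6. The remaining genes were FGF14, GDPD5, HS6ST1, LEPREL1, PCGF5, PTPRU, RASSF3, SEMA3C and ZEB1, and 8 of these 9 had several myoblast peaks. SDC4, HS6ST1 and HS6ST2 all belong to the heparan sulfate system, as the core protein and as enzymes that modify its chains. That grouping was noticed after the values were seen.

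In 13 genes a first-intron peak was listed in myotubes and none in myoblasts. These were MAP2K1, ADA, SPPL2B, NTN1, CDCA7L, TEAD1, TBL1X, DHRS11, ACADSB, LPHN2, CD36, ARPP19 and CNOT4. A missing call in 1 library is not an absent site, and c-Myc tags of one state were not counted over the peaks of the other. For NTN1, a myoblast peak of score 12.2 lay 0.845 kb from a myotube peak in the same intron, in a CpG island and so outside the rule. For TEAD1 the nearest myoblast peak, of score 18.3, was in the promoter class and had TEAD1 as its nearest gene. The nearest myoblast peak likewise had the host as its nearest gene for ADA (score 20.5 at 5.44 kb), SPPL2B, CDCA7L, CD36 (score 15.7 at 2.19 kb) and CNOT4. For the remaining genes it had another nearest gene.

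A minority of host genes had a promoter peak as well, and in myoblasts their share could not be told from that of later-intron hosts. In myoblasts 65 of 394 hosts (16.5%, 13.0 to 20.5) also had a peak within 1 kb of the TSS, beside 19.2% of hosts of later-intron peaks and 22.1% of all genes named in the list. In myotubes it was 0 of 28, for which the exact interval reaches 12.3%. This stood beside 1.25% of hosts of later-intron peaks (1 of 80) and 7.30% of all genes named. The figure for all genes includes those named through a promoter peak alone, so it is not a strict reference for hosts. OSTM1 had a promoter peak of score 21.4 and a first-intron peak of 16.6. CRY1, a clock repressor, had 20.9 at the promoter and 11.8 in the intron, and AP1G1, an adaptor subunit of clathrin coats, had 20.9 and 13.1. OSTM1, CRY1 and AP1G1 had the highest promoter scores of these hosts, so a higher promoter peak there follows in part from that choice. Among the other hosts the order went both ways. QKI had 18.7 at the promoter and 19.6 in the intron, and MSN had 11.3 and up to 20.5. RAB32 had 19.6 and 10.5. The muscle regulators EYA2 and MEF2A, named after their values were seen, had promoter peaks of 16.1 and 14.4 and first-intron peaks of 13.1 and 10.

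On the chromosomes, 340 of the 571 myoblast peaks (59.5%, 55.4 to 63.6) lay on macrochromosomes 1 to 5, beside 52.2% of peaks in later introns and 57.9% of all peaks. Microchromosomes, the small gene-dense chromosomes of birds, here numbers 11 and above, held 18.9% (15.8 to 22.4), beside 23.9% in later introns and 22.2% of all peaks. In myotubes 9 of 32 (28.1%, 13.7 to 46.7) lay on microchromosomes, beside 29.2% of all myotube peaks. First-intron peaks of myoblasts thus leaned to large chromosomes relative to later introns, and the interval for macrochromosomes excludes the later-intron share. It takes in the share of all peaks and that of intergenic peaks outside CpG islands and repeats (59.9%). Of those intergenic peaks, 20.4% lay on microchromosomes, so the lean was not particular to first introns. The interval also counts peaks of 1 intron as independent, which they are not.

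Gene lists were read by how many of their genes named in either peak list hosted a first-intron peak. Over all 4867 genes named, 8.10% did so in myoblasts and 0.575% in myotubes. The lists were written with earlier results of these data known, and gene and intron lengths were not used. The shares therefore only describe where peaks lay. The largest share was that of axon guidance and cell adhesion genes, with 17 of 38 in myoblasts (44.7%, 28.6 to 61.7). Of the same 38 genes, 27 hosted a later-intron peak in myoblasts, beside 22.5% of all genes named, so intron peaks of either kind were frequent in this list. Among its members the ephrin receptor EPHB2 had a peak of score 16.6 at 9.66 kb with 5 IgG tags. The adhesion protein CDH11, the semaphorin receptor NRP2 and the netrin receptor UNC5C each reached 14.8, with 1, 2 and 2 IgG tags. In myotubes the netrin NTN1 and the semaphorin SEMA3C hosted peaks, with scores of 14.4 and 12.1.

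Growth factor, AKT and mTOR genes followed with 7 of 28 (25%, 10.7 to 44.9), an interval above the background share of 8.10%. The small endothelial and blood list, given below, had the same share. Of the same 28 genes, 12 hosted a later-intron peak in myoblasts, beside 22.5% of all genes named. Intron peaks of either kind were thus frequent in this list too. IGFBP2, which binds insulin-like growth factors, had a peak of 16.6 at 25.3 kb. IGF1R, the receptor of IGF1, had 3 peaks up to 16.1, and EGFR had 4 up to 13.9. The ligands FGF2 and FGF10 had 2 each, up to 12.6 and 12.2. FGF13 and FGF14 had 3 each, up to 11.3 and 14.4. In myotubes FGF14 was the single host, with a score of 13.9 over 7 IgG tags. The hosts in this list were thus fibroblast growth factor genes, a binding protein and receptors, and no AKT or mTOR gene was among them.

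Myogenic and muscle transcription factors counted 5 of 29 in myoblasts (17.2%, 5.85 to 35.8). Among them were RUNX1 (18.3), EYA2 (13.1), the muscle methyltransferase SMYD1 (12.6) and MEF2A (10). TEAD1 was the member in myotubes. Sarcomere and contraction genes counted 4 of 23 (17.4%, 4.95 to 38.8) in myoblasts and 0 in myotubes. DMD, dystrophin, had 3 peaks up to 14.8, the protease CAPN3 had 13.9 over 0 IgG tags, MYBPC3 had 12.2 and ACTN2 had 10.9. Both intervals take in the background share of 8.10%.

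TGF-beta, BMP, Wnt, Notch and Hedgehog genes counted 6 of 39 (15.4%, 5.86 to 30.5), among them SMAD3 with 3 peaks up to 18.3, the Wnt coreceptor LRP5 (14.8), the receptor BMPR1B (13.9) and the Hedgehog effector GLI2 (13.9). Clock genes counted 3 of 15 (20%, 4.33 to 48.1), namely RORA, CRY1 and NFIL3. Neither list had a host in myotubes. The MYC network had 1 of 7, MXI1, an antagonist of MYC that pairs with MAX, with a score of 13.9 at 4.36 kb. Cell cycle and replication genes had 1 of 19, the cyclin CCNE1 (12.6 at 3.09 kb), and ribosomal protein and translation genes 0 of 17, for which the exact interval reaches 19.5%. Splicing genes had 1 of 16, MBNL2 (12.2). The MYC network, cell cycle, translation and splicing lists had no host in myotubes. The myoblast intervals of these lists, and of the TGF-beta and clock lists, take in the background share of 8.10%.

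Markers of other cell types hosted first-intron peaks in myoblasts as well, at shares whose intervals all take in the background of 8.10%. COL3A1, a fibroblast collagen, had a pair up to 15.7, and it was the single host of 12 fibroblast and matrix genes (8.33%, 0.211 to 38.5). EBF2 (13.9) was the host among 10 adipocyte genes and SYT1 (11.3) among 10 neural genes, each 10% (0.253 to 44.5). FLT1 (12.2) and CDH5 (11.8) were the hosts among 8 endothelial and blood genes (25%, 3.19 to 65.1). None of these marker lists had a host in myotubes, where the background is 0.575% and lists this small can hardly show a lack. A peak does not show that the gene was expressed, and what other cells contributed to these libraries was not tested.

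**Figure D5:**
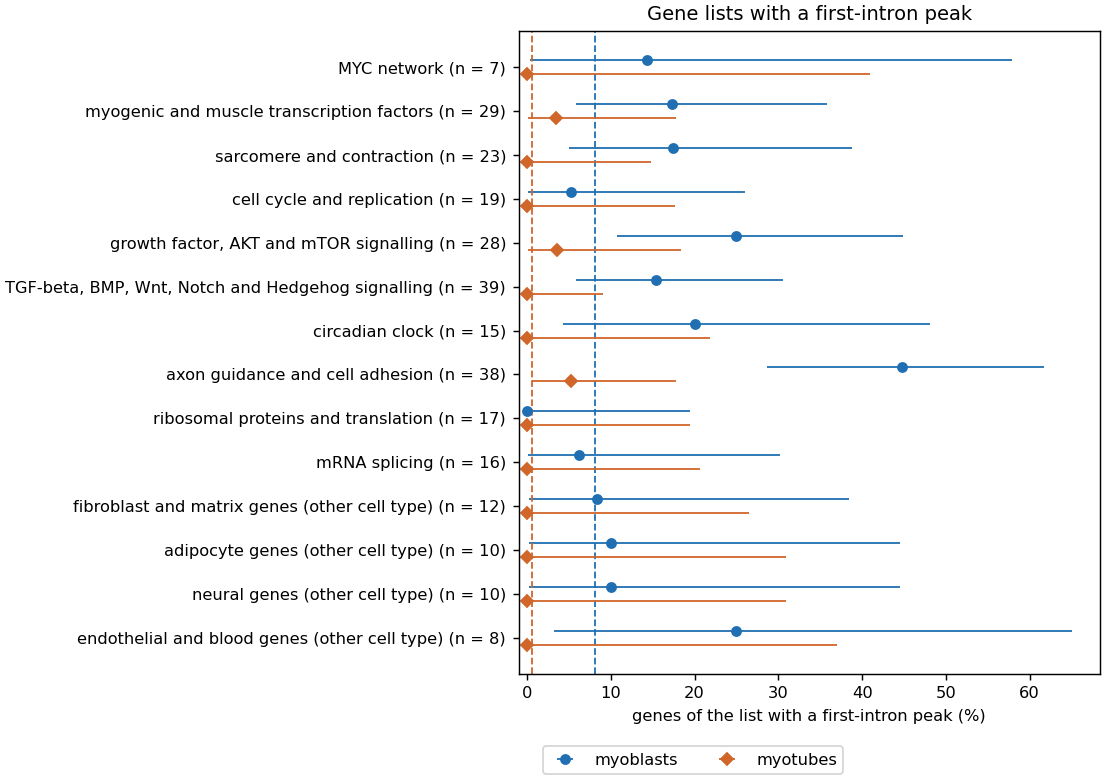
Share of the genes of each list (n, genes named in either peak list) that host a first-intron peak, in percent, with exact 95% binomial intervals; dashed lines give the share over all 4867 genes named, 8.10% in myoblasts and 0.575% in myotubes. Axon guidance and cell adhesion genes stand farthest to the right at 44.7% in myoblasts, and ribosomal protein and translation genes are at 0.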

How the data were processed

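Peak lists of c-Myc against IgG were analysed as deposited, 1 per cell state. Per the submitters' processing notes, the tools were CASAVA 1.8.2, Trimmomatic 0.30, FastQC 0.10.1, Bowtie2 2.1.0 and HOMER 4.6, with build galGal4. Per the file headers, HOMER annotated the lists. How peaks were called is not given in the sources used here. The score deposited by the authors equals caller tags per 10M. Per the file headers, the signal columns give unscaled c-Myc and IgG tags per peak. Folds against IgG and against the surrounding region are ratios deposited by the authors, all at least 4, and the p-value deposited by the authors is the caller's.

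The host gene is that of the transcript named in the annotation, through pairs of accession and gene name in the lists or, for 7 peaks, the RefSeq table of assembly GRCg7b, used for names only. Of 407 host transcripts 378 were in that table, and 24 of them carry another symbol there. Where the nearest TSS is another gene's, the distance from the host TSS was derived from other peaks of that transcript, within 2 bp. Symbols damaged by a spreadsheet (2 hosts) are not named.

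Counts carry exact binomial or Poisson intervals and medians order-statistic intervals, at 95%, computed with scipy 1.17.1, pandas 2.3.3 and numpy 2.4.6 in Python 3.11.15. Figures used matplotlib 3.10.9. Counting was tested on simulated data. The members and the 14 gene lists were chosen with earlier results of these data known. Genes named in the text are the 20 highest myoblast and 15 highest myotube peaks, the shared peak, the 10 introns with most peaks, the closest and farthest peaks, hosts common to both states, up to 4 members of each list, and, after their values were seen, hosts with promoter peaks, further list members and myotube hosts without a myoblast peak. Alternatives were a fold of at least 8, the upper 50% by score, keeping CpG islands and repeats, placed chromosomes, other overlaps, TSS windows of 500 bp and 5 kb, and score per 100 bp. Of the genes taken by the rule for named genes, 1 is not reported here.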

Additional observations from a re-analysis of the deposited data

How the results depend on the processing

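Of 74 alternatives over 16 results, 53 left the value within its interval, or within 1.5 times for counts, and 21 moved it. All peaks lay on placed chromosomes, so that alternative removed no peak and could not move a value. Its outcomes are counted among the 53 and say nothing about stability. A fold over IgG of at least 8 left 280 first-intron peaks in myoblasts and 16 in myotubes, and the upper 50% by score left 302 and 16. The upper 50% raised the myoblast median score to 13.9 by construction. Per 100 bp of peak, which changes the unit, the medians were 6.30 in myoblasts and 8.44 in myotubes. The share with 0 IgG tags in myoblasts was 13.9% at a fold of at least 8 and 4.64% in the upper 50%, the first by construction. Shared peaks were 0 in both states under either choice, since the AMPD3 peak of myoblasts drops out at a fold of at least 8 and that of myotubes in the upper 50%. Myoblast genes with several peaks fell to 20.4% and 18.2%, and hosts with a promoter peak to 8.33% and 9.52%, with fewer peaks by construction. Hosts with a promoter peak were 12.2% in myoblasts with a 500 bp window. With 5 kb they were 46.7% in myoblasts and 32.1% in myotubes, a window that takes in first-intron peaks themselves. Myotube peaks on microchromosomes were 6.25% at a fold of at least 8 (0.158 to 30.2), and the cause was not tested. No paired analysis was possible because each group had 1 library, and no library could be left out for the same reason. With a median of 14.5 and 11.5 c-Myc tags per peak, depth limits any ranking of single peaks.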
